A study of Mus musculus with 12 samples.

Results

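The unfolded protein response is described here through 10 genes: the endoplasmic reticulum (ER) chaperone and folding-enzyme genes Hspa5, Hsp90b1, Calr, Pdia4 and Pdia6, the ER quality-control gene Herpud1, the transcription factor genes Xbp1 and Atf4, and the ATF4 target genes Ddit3 and Chac1. They were taken by gene symbol from the array's gene table, and for each symbol the transcript cluster (the set of probes for 1 locus) with the highest mean over the 12 arrays was used. All 10 were found, and all 10 were among the 37240 tested clusters of the 65956 on the array. The Pdia4 cluster is also assigned to the microRNA gene Mir704, so the signal of these genes cannot be told apart.

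The unfolded protein response is the set of signals by which a cell adjusts to unfolded proteins in its ER. The membrane sensors ATF6 and IRE1 (gene Ern1) act through ATF6 itself and through XBP1, which IRE1 activates by splicing its mRNA, and these factors turn on chaperone, folding and degradation genes. The sensor PERK (gene Eif2ak3) slows protein synthesis and favours translation of ATF4, which turns on amino acid genes, Ddit3 and Chac1. Neither the splicing of Xbp1 nor the translation of Atf4 is read by the intensity of a transcript cluster. In bone marrow, cells that make much granule or secreted protein, such as granulocyte precursors and plasma cells, are known for high levels of ER chaperones.

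RNA came from monocytes and macrophages purified magnetically from murine bone marrow, and each of 12 mice gave 1 Clariom D array. All mice were Rag2-/-gamma c-/- on a BALB/c background, which lack T, B and natural killer cells. At 21 d, the early stage of leukemia, 3 mice with MEC1 and 3 without were compared, all aged 11 weeks. At 31 d, the late stage, 3 mice with MEC1 and 3 without were compared, all aged 13 weeks. MEC1 is a human cell line derived from chronic lymphocytic leukemia and was given by intravenous injection, so the leukemia is that of 1 line in a host without its own lymphocytes. The number of arrays limits the precision. In such bulk samples, fewer cells of a type and less RNA per cell cannot be told apart.

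The promoters show which members carry the elements named after this response. In the RefSeq promoter windows of GRCm38.p6, from 250 bases before to 50 bases after the gene start, all 10 members had a window. The ER stress response element ERSE (CCAAT, 9 bases of any kind, CCACG) was searched on both strands, together with ERSE-II (ATTGG, 1 base of any kind, CCACG), the unfolded protein response element UPRE (TGACGTGG) and the ATF4-type element CARE (TGATGNAA). The letters CCACG close both ERSE and ERSE-II, and their reverse complement CGTGG closes UPRE. ERSE occurred in 39 of 32851 promoters (0.119%), ERSE-II in 12 (0.0365%), UPRE in 222 (0.676%) and CARE in 1304 (3.97%). The members with ERSE were Hspa5, Hsp90b1 with 2 matches, Calr and Pdia6, Herpud1 had ERSE-II and CARE, and Chac1 had CARE. None of these letters were found in the windows of Pdia4, Xbp1, Atf4 and Ddit3. A match is a description of the letters only.

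The 250 bases before the start of Hspa5 (chr2:34771840-34772089, plus strand) are shown because it is the chaperone gene whose fall at 31 d, given below, passed in the most other settings (23 of 24). Capitals mark the fixed letters of ERSE.
Hspa5: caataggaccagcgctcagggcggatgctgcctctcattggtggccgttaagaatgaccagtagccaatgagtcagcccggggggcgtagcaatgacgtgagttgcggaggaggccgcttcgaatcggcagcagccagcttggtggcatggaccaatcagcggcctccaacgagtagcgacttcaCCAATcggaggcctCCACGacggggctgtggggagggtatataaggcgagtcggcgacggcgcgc

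The matches of the other members are shown with 20 bases on each side, so that the spacing of the fixed letters (capitals) can be compared between chaperones and ATF4-type sites. They lie at chr10:86705618-86705676 and chr10:86705513-86705571 for Hsp90b1 and at chr8:84847055-84847113 for Calr, all on the minus strand. Those on the plus strand are chr12:17266471-17266529 for Pdia6, chr8:94386357-94386407 and chr8:94386297-94386344 for Herpud1, and chr2:119351029-119351076 for Chac1.
Hsp90b1 distal ERSE: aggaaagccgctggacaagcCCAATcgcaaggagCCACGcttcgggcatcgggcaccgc
Hsp90b1 proximal ERSE: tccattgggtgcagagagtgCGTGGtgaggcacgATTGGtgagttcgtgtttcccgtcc
Calr ERSE: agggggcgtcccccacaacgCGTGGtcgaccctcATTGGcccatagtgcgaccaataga
Pdia6 ERSE: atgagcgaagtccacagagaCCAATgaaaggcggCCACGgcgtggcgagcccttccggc
Herpud1 ERSE-II: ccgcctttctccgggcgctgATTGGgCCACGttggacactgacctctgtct
Herpud1 CARE: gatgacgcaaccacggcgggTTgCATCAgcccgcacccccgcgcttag
Chac1 CARE: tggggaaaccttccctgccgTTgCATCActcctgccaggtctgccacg
The proximal Hsp90b1 match, the Calr match and both CARE matches read on the strand opposite to the gene.

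At 31 d, 5 of the 10 members were lower with MEC1: the chaperone genes Hspa5, Hsp90b1, Calr and Pdia4, and the stress-induced factor gene Ddit3. Chac1 had a change above 0 that passed, but its signal was below the array median in every mouse without MEC1, so it entered the test only through the mice with MEC1 and is not counted as support. Pdia6, Herpud1, Xbp1 and Atf4 did not pass. At 21 d Ddit3 fell and no other member passed. A member was called where its adjusted p from limma, over all tested clusters, was under 0.05. By that rule 43.8% of all tested clusters were called at 31 d, 21.1% lower and 22.6% higher, and 4.34% at 21 d, 2.51% lower and 1.83% higher. The median change of the members was -1.09 at 31 d and 0.10 at 21 d on the log2 scale, beside 0.04 and 0.02 over all tested clusters. With the level of the bacterial hybridisation controls as a covariate, of whose variance the groups made up 92.1%, 0 members were called at either day. The changes at 31 d were then 0.96 for Hspa5, 2.19 for Hsp90b1, 1.86 for Calr, 1.67 for Pdia4 and -0.09 for Ddit3. The sign of the chaperone genes thus turned, but this fit can hardly part the controls from the group. Of the 37240 tested clusters, 7 were called in it at 31 d.

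The background at the members' own signal levels was higher, and the members have to be read against it. At 31 d the clusters with a 12-array mean from 12 to under 14, where Hspa5 and Calr lie, had a median change of -0.79, and 40.6% of them fell. The medians were -0.86 from 10 to under 12, with 45.9% lower, and -0.88 from 8 to under 10, with 53% lower. From 14 to under 16, where Hsp90b1 lies, the median was -0.58, and 30.5% fell. At 21 d the medians of the same bands, from the dimmest, were -0.35, -0.22, -0.16 and -0.09. So the count of members that fell at 31 d was close to the share of clusters of like level that fell.

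The arrays themselves differed between the groups. The bacterial hybridisation controls, added in fixed amount, had array means of 10.47 to 10.87 log2 intensity without MEC1, 11.80 to 12.04 with MEC1 at 21 d and 12.15 to 13.18 with MEC1 at 31 d. The array median over all clusters was 0.20 higher with MEC1 at 21 d and 0.43 higher at 31 d. MEC1 31 d replicate 3 stood apart, with the highest hybridisation controls (13.18), and it was the lowest of the 12 arrays for 8 of the 10 members. Its part in each call is given beside the call, and what the control signal contributed was not tested apart from the group.

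Hspa5 (chr2:34772090-34776529) encodes BiP, the main ER chaperone and a brake on the ER sensors. Its log2 intensities in replicates 1 to 3 were 13.45, 13.79 and 13.81 without MEC1 and 13.35, 13.88 and 13.92 with MEC1 at 21 d, and 13.88, 14.06 and 14.10 without and 12.97, 12.69 and 11.53 with MEC1 at 31 d. The groups overlapped at 21 d, and at 31 d all 3 mice with MEC1 lay below all mice without. Hspa5 changed by 0.03 (SE 0.32, adjusted p = 0.958) at 21 d and by -1.62 (SE 0.32, 95% interval -2.32 to -0.91, adjusted p = 0.00364), or 3.07-fold lower, at 31 d. The fall at 31 d passed without each array in turn, from -1.90 to -1.18, and was -1.18 (adjusted p = 0.00433) without MEC1 31 d replicate 3.

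Hsp90b1 (chr10:86690841-86705444) encodes GRP94, the ER form of the HSP90 chaperones. It measured 15.36, 15.66 and 15.51 without MEC1 and 15.64, 15.94 and 16.28 with MEC1 at 21 d, and 15.74, 15.73 and 15.67 without and 15.37, 14.75 and 13.39 with MEC1 at 31 d. The MEC1 mice overlapped the others at 21 d and were all below them at 31 d, replicate 1 by the least. The change was 0.44 (SE 0.392, adjusted p = 0.504) at 21 d and -1.21 (SE 0.392, adjusted p = 0.0293), or 2.31-fold lower, at 31 d. The call at 31 d was lost with no moderation (adjusted p = 0.0575), with the 6 arrays of the day alone (adjusted p = 0.0795), without MEC1 31 d replicate 3 (-0.65, adjusted p = 0.0545) and without control 31 d replicate 1, 2 or 3 (adjusted p = 0.0669, 0.073 and 0.0649).

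Calr (chr8:84842088-84846931) encodes calreticulin, a calcium-binding chaperone of glycoproteins. Its values were 13.67, 13.78 and 13.50 without MEC1 and 13.55, 13.97 and 13.94 with MEC1 at 21 d, and 14.16, 13.99 and 13.97 without and 13.49, 12.65 and 11.43 with MEC1 at 31 d. Again the groups overlapped at 21 d and were separate at 31 d, with MEC1 below. Calr changed by 0.17 (SE 0.393, adjusted p = 0.809) at 21 d and by -1.52 (SE 0.393, adjusted p = 0.0119), or 2.86-fold lower, at 31 d. Without MEC1 31 d replicate 3 the change was -0.97 (adjusted p = 0.0167), and with quantile normalization as well it was -0.77 and did not pass (adjusted p = 0.0562).

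Pdia4 (chr6:47796141-47813512) encodes ERp72, a protein disulfide isomerase. It measured 10.91, 12.17 and 11.92 without MEC1 and 11.74, 12.27 and 12.46 with MEC1 at 21 d, and 12.67, 11.87 and 12.36 without and 11.49, 11.15 and 9.35 with MEC1 at 31 d. Control replicate 1 was the low array at 21 d, and at 31 d all MEC1 arrays were below the controls. The change was 0.49 (SE 0.516, adjusted p = 0.573) at 21 d and -1.64 (SE 0.516, adjusted p = 0.0265), or 3.11-fold lower, at 31 d. Leaving aside the covariate, the call was lost in 7 of 23 settings. These were quantile normalization (-1.14, adjusted p = 0.0518), the same without MEC1 31 d replicate 3 (-0.74, adjusted p = 0.176), no moderation (adjusted p = 0.056) and the 6 arrays of the day alone (adjusted p = 0.0563). It was also lost without MEC1 31 d replicate 3 (-0.98, adjusted p = 0.0771) and without control 31 d replicate 1 (-1.45, adjusted p = 0.0792) or 3 (-1.61, adjusted p = 0.0665).

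Pdia6 (chr12:17266589-17284785) encodes P5, a disulfide isomerase that also binds IRE1. Its values were 11.36, 11.65 and 11.52 without MEC1 and 11.39, 11.84 and 12.28 with MEC1 at 21 d, and 11.91, 11.66 and 11.60 without and 11.64, 10.93 and 9.72 with MEC1 at 31 d. MEC1 replicate 1 lay within the control range at 31 d, so the groups overlapped at both days. The changes of 0.33 (SE 0.397, adjusted p = 0.629) at 21 d and -0.96 (SE 0.397, adjusted p = 0.0699) at 31 d did not pass, and the second was -1.40 (adjusted p = 0.0117) without MEC1 31 d replicate 1 and -0.44 (adjusted p = 0.245) without replicate 3.

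**Figure D1:**
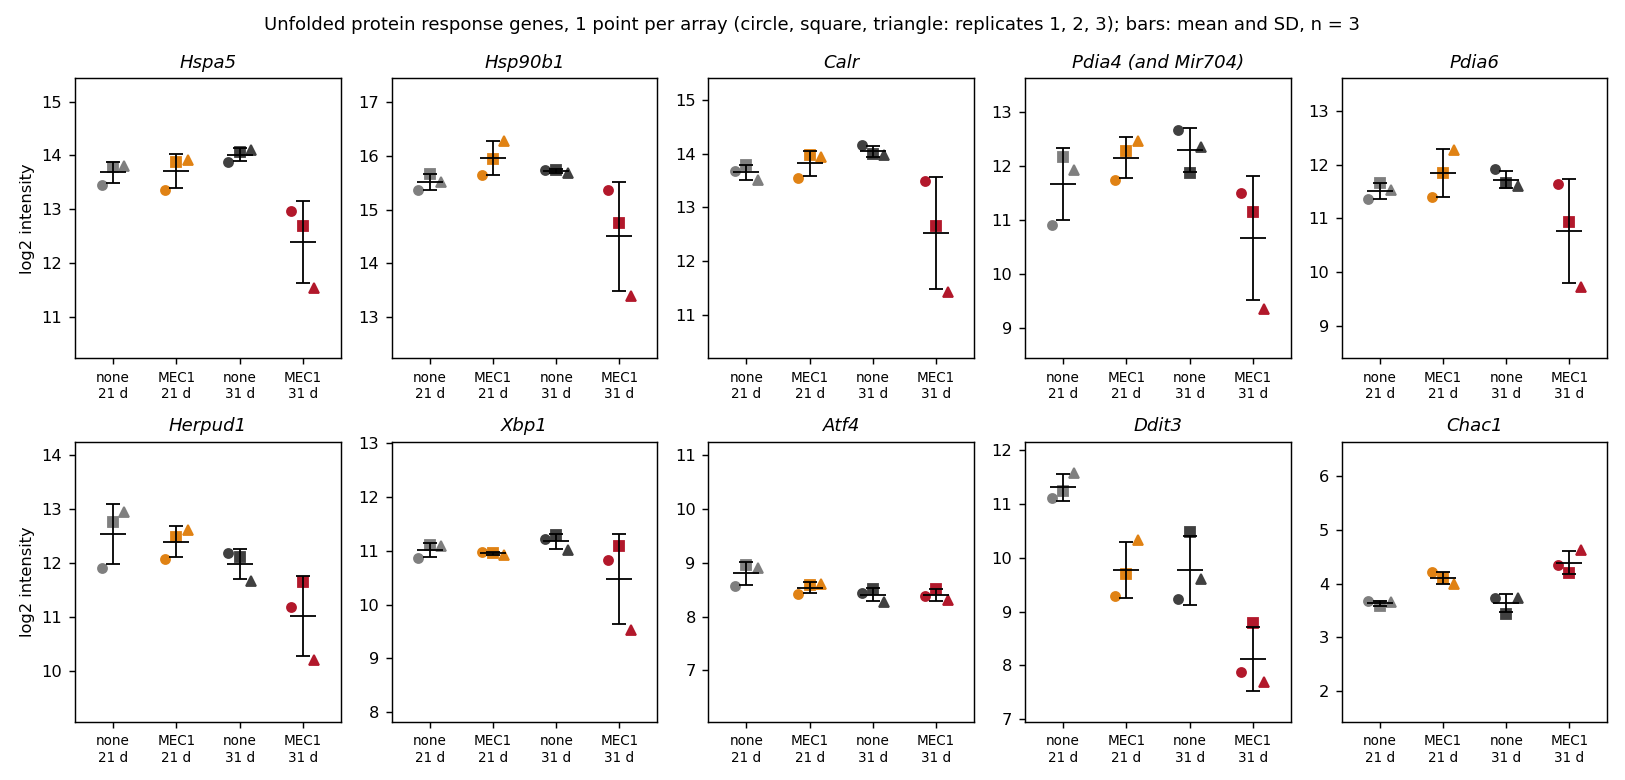
Log2 intensity (vertical axis) of each of the 10 members in every array, by group along the horizontal axis, with 1 point per mouse (circle, square and triangle for replicates 1, 2 and 3) and bars for the mean and SD of 3 mice. Hspa5, Hsp90b1, Calr and Pdia4 lie apart from the controls only with MEC1 at 31 d, where replicate 3 is lowest, whereas Ddit3 is lower with MEC1 at both days and Atf4 has the same mean with and without MEC1 at 31 d at the deposited scaling (8.40), against a change of 0.71 with quantile normalization.

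Herpud1 (chr8:94386429-94395371) encodes HERP, a membrane protein of ER-associated degradation. It measured 11.90, 12.77 and 12.95 without MEC1 and 12.07, 12.49 and 12.62 with MEC1 at 21 d, and 12.18, 12.11 and 11.67 without and 11.19, 11.65 and 10.20 with MEC1 at 31 d. The 31 d groups did not overlap, although MEC1 replicate 2 (11.65) and control replicate 3 (11.67) were nearly level. Its changes were -0.15 (SE 0.371, adjusted p = 0.826) at 21 d and -0.97 (SE 0.371, adjusted p = 0.0532) at 31 d, neither of which passed. Without MEC1 31 d replicate 2 the second was -1.29 (adjusted p = 0.0239), and without replicate 3 it was -0.57 (adjusted p = 0.198).

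Xbp1 (chr11:5520641-5525993) encodes the factor that IRE1 activates. Its values were 10.86, 11.11 and 11.08 without MEC1 and 10.97, 10.95 and 10.93 with MEC1 at 21 d, and 11.21, 11.30 and 11.02 without and 10.83, 11.08 and 9.53 with MEC1 at 31 d. MEC1 31 d replicate 3 was far from the others. Xbp1 changed by -0.07 (SE 0.319, adjusted p = 0.912) at 21 d and by -0.70 (SE 0.319, adjusted p = 0.0956) at 31 d, and the second was -0.22 without replicate 3 and -1.0 (adjusted p = 0.0308) without MEC1 31 d replicate 2.

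Atf4 (chr15:80255184-80257545) encodes the transcription factor favoured when PERK or a related kinase slows protein synthesis. It measured 8.56, 8.96 and 8.90 without MEC1 and 8.42, 8.58 and 8.61 with MEC1 at 21 d, and 8.43, 8.51 and 8.27 without and 8.39, 8.51 and 8.30 with MEC1 at 31 d. At 31 d the values of the groups covered the same range. The change was -0.27 (SE 0.149, adjusted p = 0.296) at 21 d and 0.00 (SE 0.149, 95% interval -0.33 to 0.33, adjusted p = 0.987) at 31 d. This level depended on the scaling of the arrays. With quantile normalization the change at 31 d was 0.71 (adjusted p = 0.014), and with each array centred on its median over all clusters it was -0.43 (adjusted p = 0.0867).

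Ddit3 (chr10:127290793-127296291) encodes CHOP, a factor induced by ATF4 that promotes cell death under lasting ER stress. Its values were 11.10, 11.24 and 11.58 without MEC1 and 9.29, 9.69 and 10.32 with MEC1 at 21 d, and 9.23, 10.48 and 9.60 without and 7.87, 8.79 and 7.69 with MEC1 at 31 d. All MEC1 mice lay below all controls of their day at both days, and the controls of 31 d lay within the range of the MEC1 mice of 21 d except replicates 1 and 2, which lay just below and just above it. Ddit3 fell by 1.54 (SE 0.382, adjusted p = 0.0487), or 2.91-fold, at 21 d and by 1.65 (SE 0.382, adjusted p = 0.00726), or 3.15-fold, at 31 d. A second Ddit3 cluster on the array had changes of -1.73 and -1.70. The call at 31 d passed without each array in turn, at most at an adjusted p of 0.0299 without MEC1 31 d replicate 3 (-1.44). With that array left out and quantile normalization the change was -0.95 and did not pass (adjusted p = 0.0942). The call at 21 d passed in 4 of 12 such fits, with an adjusted p from 0.0273 to 0.163. It was lost without any of the control 21 d replicates, without MEC1 21 d replicate 1 or 2, without control 31 d replicate 1 or 3 and without MEC1 31 d replicate 1.

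Chac1 (chr2:119351242-119354326) encodes an enzyme that degrades glutathione and is induced through ATF4 and CHOP. It measured 3.67, 3.58 and 3.65 without MEC1 and 4.21, 4.10 and 4.0 with MEC1 at 21 d, and 3.74, 3.44 and 3.74 without and 4.34, 4.20 and 4.63 with MEC1 at 31 d. All MEC1 mice were above the controls of their day, at a signal near the array median, which was 3.81 without and 4.24 with MEC1 at 31 d. Chac1 lay above its array's median in 6 of 6 arrays with MEC1 and in 0 of 6 without, so it entered the test only through the groups where it was high. The change was 0.47 (SE 0.152, adjusted p = 0.104) at 21 d and 0.75 (SE 0.152, adjusted p = 0.0041) at 31 d. No fold is given, since the mean without MEC1 at 31 d (3.64) lay under the array median. Clusters with a 12-array mean from 2 to under 4 had a median change of 0.42 at 31 d, and 37.4% of them rose. Centred on the array median over all clusters, the change of Chac1 was 0.32 and did not pass (adjusted p = 0.0703). Quantile normalization with MEC1 31 d replicate 3 left out gave 0.33 (adjusted p = 0.135).

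**Figure D2:**
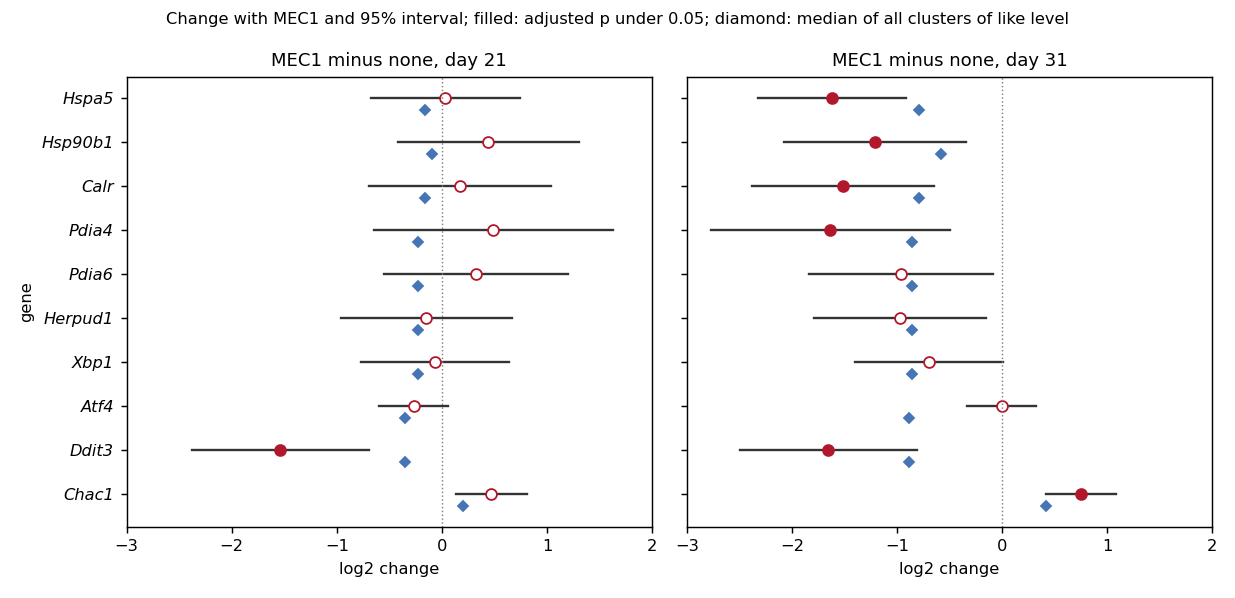
Change with MEC1 on the log2 scale (horizontal axis) for each member at 21 d and 31 d, with its 95% interval, beside the median change of all tested clusters of like level (diamonds), and filled circles where the adjusted p was under 0.05. At 31 d Hspa5 (-1.62) lies well below the median of its level (-0.79), Xbp1 (-0.70) lies near that of its level (-0.86), and Atf4 (0.00) lies above its own (-0.88).

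The groups did not overlap for 7 of the 10 members at 31 d, 6 with MEC1 below and Chac1 above, where 28.4% of all tested clusters had MEC1 below and 31.2% above. At 21 d this held for Ddit3 below and Chac1 above, against 13.7% and 14.9%. These shares were not taken among clusters of like level. Calls of a fall at 31 d were 30.5% to 53% in the bands from 8 to under 16, against 21.1% over all. Chac1 entered the test only through the mice with MEC1, so nothing further is read from these counts. Whether the effect of MEC1 differed between the days was tested as the difference of the changes, 31 minus 21 d. No member passed, 0.00269% of all clusters did, and 5 members had an unadjusted p under 0.05. The difference for Hspa5 was -1.65 (95% interval -2.65 to -0.65, adjusted p = 0.329), for Pdia4 -2.13 (adjusted p = 0.335) and for Ddit3 -0.11 (adjusted p = 0.935). None passed in any of the 23 other settings run for this test. The 5 chaperone genes thus had changes of 0.03 to 0.49 at 21 d and -1.64 to -0.96 at 31 d, without a difference that passed for any of them.

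In mice without MEC1, 31 d against 21 d gave no call among the members, with 0.00806% of all clusters called and 2 members at an unadjusted p under 0.05. These were Ddit3, with a change of -1.54 (SE 0.382, adjusted p = 0.278), and Atf4, with -0.40 (SE 0.149, adjusted p = 0.618). The Ddit3 controls measured 11.31 ± 0.247 (SD, n = 3) at 21 d and 9.77 ± 0.642 at 31 d, and the 21 d mice with MEC1 had the level of the later controls, 9.77 ± 0.519. The chaperone genes had changes of 0.20 to 0.63 between the same control groups.

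The chaperones and the ATF4 targets were set against each other as the mean log2 intensity of the 5 chaperone genes minus that of Ddit3 and Chac1 in each array, which compares arrays and not probes. The difference was 5.57, 6.00 and 5.64 without MEC1 and 6.38, 6.69 and 6.62 with MEC1 at 21 d, and 7.19, 6.50 and 6.87 without and 6.89, 5.94 and 4.92 with MEC1 at 31 d. At 21 d every MEC1 mouse was above every control, and at 31 d the groups overlapped, with replicate 3 lowest. With MEC1 minus without, this came to 0.83 at 21 d and to -0.94 at 31 d, as values with no test. The second was -0.44 without MEC1 31 d replicate 3 and -1.42 without replicate 1, and the other chaperone and ATF4 target genes of the pathway lists gave 0.17 and -0.35. With the hybridisation controls as a covariate it turned to 1.87 at 31 d and was 2.41 at 21 d. At 21 d the chaperone mean was 13.20 ± 0.234 (SD, n = 3) without and 13.50 ± 0.329 with MEC1, and the target mean was 7.47 ± 0.126 and 6.94 ± 0.208. At 31 d the chaperone mean was 13.56 ± 0.106 without and 12.17 ± 0.981 with MEC1, and the target mean was 6.71 ± 0.239 and 6.25 ± 0.211. The target mean joins Ddit3 with Chac1, whose signal without MEC1 was below the array median, so it stands for neither gene. Beside Ddit3 alone, with changes of -1.54 and -1.65, the chaperone mean had changes of 0.29 and -1.39. None of these differences was set against clusters of like level. At 31 d the median changes of clusters at these levels were -0.86 to -0.58 for the chaperone genes, -0.88 for Ddit3 and 0.42 for Chac1. At 21 d they were -0.22 to -0.09, -0.35 and 0.20.

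**Figure D3:**
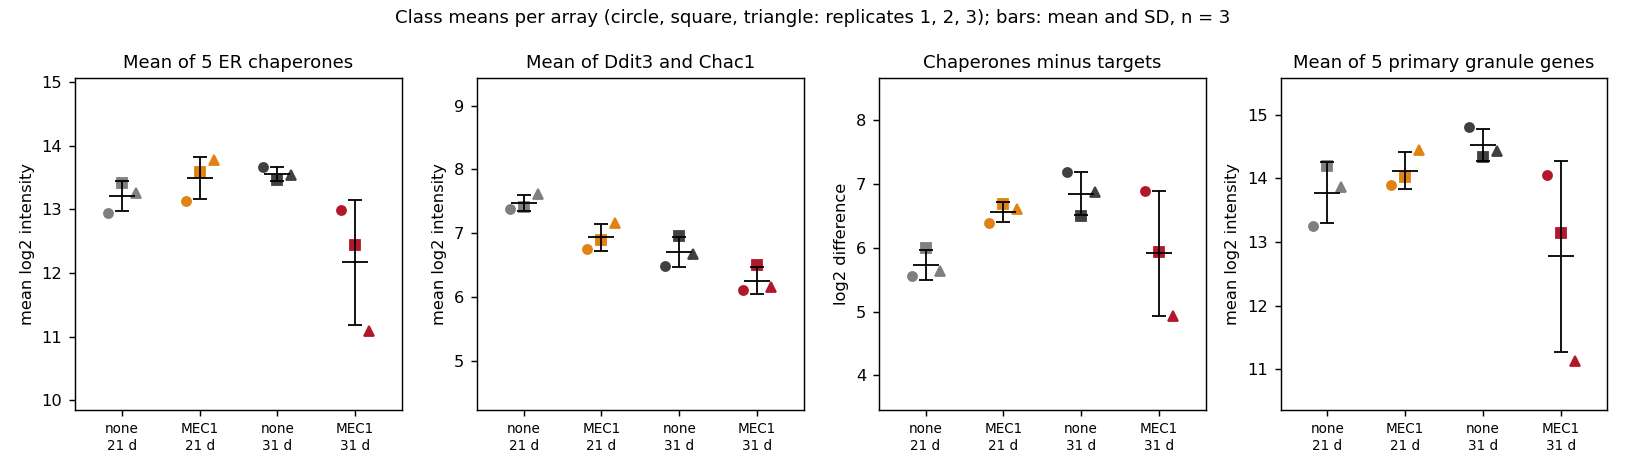
Per-array means by group: the 5 chaperone genes, Ddit3 and Chac1, the difference of both (log2 scale), and 5 primary granule genes of neutrophil precursors, with points for mice and bars for mean and SD (n = 3). The chaperone means of the 31 d MEC1 mice (12.99, 12.43 and 11.08) and their granule gene means (14.05, 13.14 and 11.13) fall in the same order of mice. In that order their hybridisation controls (12.15, 12.39 and 13.18) and array medians (4.13, 4.18 and 4.40) rise, which is not drawn. Basophil and mast cell marker means (9.70, 9.13 and 8.31), also not drawn, fall in that order too. So do plasmacytoid dendritic cell means (6.67, 6.62 and 6.215), while plasma cell and B lineage means (4.29, 4.36 and 4.63) rise in it. Monocyte and macrophage means (11.09, 11.31 and 9.74), mature neutrophil means (13.95, 14.15 and 11.91) and erythroid means (5.79, 5.39 and 6.13) do not follow it.

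Markers of other cells also changed, and some lists, like the chaperones, had no call at 21 d and falls at 31 d. Over all clusters 2.51% fell at 21 d and 21.1% at 31 d, so such calls alone do not mark out a list. At levels from 8 to under 16, 30.5% to 53% fell at 31 d. No marker passed the test of the difference of the days. The 5 primary granule genes Mpo, Elane, Prtn3, Ctsg and Ms4a3, which mark neutrophil precursors, had array means of 14.33 to 14.80 without MEC1 at 31 d and of 14.05, 13.14 and 11.13 with MEC1. Of these, 4 of 5 fell at 31 d with a median change of -1.94, 0 of 5 passed at 21 d with a median of 0.43, and their median change between the control groups was 0.65. With quantile normalization 3 of 5 fell at 31 d (median -1.42), where 14.2% of all clusters fell. The 12-array means of Mpo (17.23) and Elane (16.36) lie above the bands of level given. Mature neutrophil markers had 1 of 9 higher and 1 of 9 lower at 31 d, with a median of 0.12. Markers of plasma cells and the B lineage, cells known for high ER chaperone levels, were near the array medians of 3.80 to 4.40, with array means of 3.99 to 4.09 without and 4.22 to 4.63 with MEC1, and 2 of 6 had a change above 0 that passed at 31 d. At such levels 37.4% of clusters from 2 to under 4 and 28.9% from 4 to under 6 rose, and the number higher was 0 with quantile normalization, with centring on the median over all clusters and without MEC1 31 d replicate 3. Basophil and mast cell markers had 0 of 5 passing at 21 d and 5 of 5 lower at 31 d (median -1.69). The count at 31 d was 3 with quantile normalization, where 14.2% of all clusters fell, and 0 with the covariate. Plasmacytoid dendritic cell markers had 1 of 6 lower at 21 d and 2 of 6 at 31 d (median -1.0), Siglech by -2.45 and Irf8 by -2.62. Markers of the labelled monocytes and macrophages lay well above the array medians, with array means of 11.99 to 12.19 without MEC1. With MEC1 the means were 10.97 to 11.47 at 21 d and 9.74 to 11.31 at 31 d. Of these markers 2 of 9 fell at 21 d (median change -1.14) and 7 of 9 at 31 d (median -1.52). The part of these cell types in the changes of the members was not tested.

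Other genes of the pathway were read from 4 lists of 74 genes, of which 69 had a cluster and 66 were tested. At 31 d, 39 of the 66 fell and 1 rose, and at 21 d 4 fell, against the backgrounds given above. In the bands of level from 6 to under 16, 30.5% to 53% of clusters fell at 31 d, against 21.1% over all. The shares given below for other settings are over all clusters and not over those of like level. A list count above such a share is therefore not read as an excess. Among 17 other ER chaperones and folding enzymes, 10 fell and 0 rose at 31 d (median change -0.77), and 0 passed at 21 d (median 0.06). Creld2, an ER disulfide isomerase-like protein, measured 11.18 ± 0.271 without and 9.03 ± 1.48 with MEC1 at 31 d (SD, n = 3), and fell by 2.15 (SE 0.584, adjusted p = 0.0145). The BiP co-chaperone gene Dnajc3 fell by 1.58 (SE 0.275, adjusted p = 0.00199), the chaperone-complex gene Sdf2l1 by 1.41 (adjusted p = 0.0145) and the disulfide isomerase gene Txndc5 by 1.08 (adjusted p = 0.00709). The count was 6 without MEC1 31 d replicate 3, where 14.4% of all clusters fell. It was 3 with quantile normalization, where 14.2% fell, and 13 with arrays centred on the median over all clusters, where 36.9% fell. With the hybridisation controls as a covariate it was 0, and the median turned to 0.58.

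Among 16 genes of ER-associated degradation and of translocation into the ER, 10 fell and 0 rose at 31 d (median -0.89), and 0 passed at 21 d (median -0.14). Os9, a lectin that hands glycoproteins to degradation, fell by 1.45 (SE 0.264, adjusted p = 0.0025). Ssr1, a subunit of the translocon-associated complex, fell by 1.43 (SE 0.446, adjusted p = 0.0253), Selenok, an ER selenoprotein, by 1.35 (adjusted p = 0.0146), and Edem3, a mannosidase of degradation, by 1.25 (adjusted p = 0.00139). The count was 6 without MEC1 31 d replicate 3, where 14.4% of all clusters fell. It was also 6 without control 31 d replicate 1, 2 or 3, where 18%, 14.2% and 16.1% of all clusters fell. With quantile normalization it was 2 of 16, where 14.2% fell. With the covariate it was 0, and the median turned to 0.73.

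Of 12 sensors and regulators, 11 fell and 0 rose at 31 d (median -1.36), and 3 fell at 21 d (median -0.74). Ppp1r15a (GADD34), which brings phosphatase to eIF2 alpha and restores protein synthesis, measured 11.23 ± 0.365 without and 8.01 ± 0.789 with MEC1 at 31 d and fell by 3.22 (SE 0.538, adjusted p = 0.00166), after a change of -1.74 (adjusted p = 0.0907) at 21 d. Eif2ak1, the heme-regulated eIF2 alpha kinase known from red cell precursors, fell by 2.50 (SE 0.297, adjusted p = 0.000489) at 31 d and by 1.59 (adjusted p = 0.0205) at 21 d. The sensor gene Ern1 fell by 2.14 (adjusted p = 0.000999) and Atf6b, a relative of Atf6, by 1.44 (adjusted p = 0.0055) at 31 d. Without MEC1 31 d replicate 3 the count at 31 d was 10, where 14.4% of all clusters fell. With quantile normalization it was 7, where 14.2% fell, and with the covariate it was 0 (median -0.32), where 0% fell. The count at 21 d was 1 with centring on the tested clusters, with trend and robust moderation, with the 6 arrays of the day, with the replicate block and without control 31 d replicate 2 or 3. It was 0 with no moderation, with the covariate, without control 21 d replicate 2 or 3 and without MEC1 21 d replicate 1 or 2. The share of all clusters that fell at 21 d was 0.781% to 2% in the former settings and 0% to 1.04% in the latter.

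Sensor genes chosen here after their values were seen are Eif2ak3, which fell by 1.42 (adjusted p = 0.00228) at 31 d, and Atf6, which fell by 0.99 (adjusted p = 0.00356) at 31 d and by 0.87 (adjusted p = 0.0369) at 21 d. The remaining call of this list at 21 d was Ppp1r15b, with a change of -0.99 (adjusted p = 0.0401). Erythroid markers fell beside these genes, with 4 of 9 lower at 21 d (median -2.87) and 9 of 9 at 31 d (median -4.74). Their array means were 10.11 to 11.82 without MEC1, 6.62 to 10.11 with MEC1 at 21 d and 5.39 to 6.13 with MEC1 at 31 d. The part of erythroid cells in the fall of Eif2ak1 and of the other regulators was not tested.

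Among 21 other ATF4 targets, 8 fell and 1 rose at 31 d (median -0.45), and 1 fell at 21 d, the stress-response gene Sesn2 (-0.65, adjusted p = 0.0481). At 21 d the count was 0 with no filter, with centring on the tested clusters, with the covariate, with trend and robust moderation, with no moderation, with the 6 arrays of the day and with the replicate block. It was also 0 without any of the 6 controls of both days, without MEC1 21 d replicate 1 or 2 and without MEC1 31 d replicate 1. Atf3, a stress-induced transcription factor gene, fell by 2.72 (SE 0.414, adjusted p = 0.00109) at 31 d, after a change of -1.60 (adjusted p = 0.0547) at 21 d. The asparagine synthetase gene Asns fell by 2.34 (SE 0.508, adjusted p = 0.00547), the amino acid transporter gene Slc7a5 by 1.20 (adjusted p = 0.0474) and the tRNA ligase gene Cars1 by 1.03 (adjusted p = 0.00988). The gene that rose, named after its value was seen, was the cystine transporter gene Slc7a11 (0.94, adjusted p = 0.01). Its mean without MEC1 at 31 d was 4.68, and its 12-array mean was 5.04. Of clusters from 4 to under 6, 28.9% rose at 31 d, with a median change of 0.26. The only call above 0 in this list at the deposited scaling was thus of low signal. Atf4 had a change of 0.00 at that scaling at 31 d. With quantile normalization 3 genes of the list fell and 2 rose, where 14.2% of all clusters fell and 14.1% rose. With arrays centred on the median over all clusters 12 fell and 0 rose, against 36.9% and 7.48%. With the covariate 0 passed, and the median was 0.04.

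**Figure D4:**
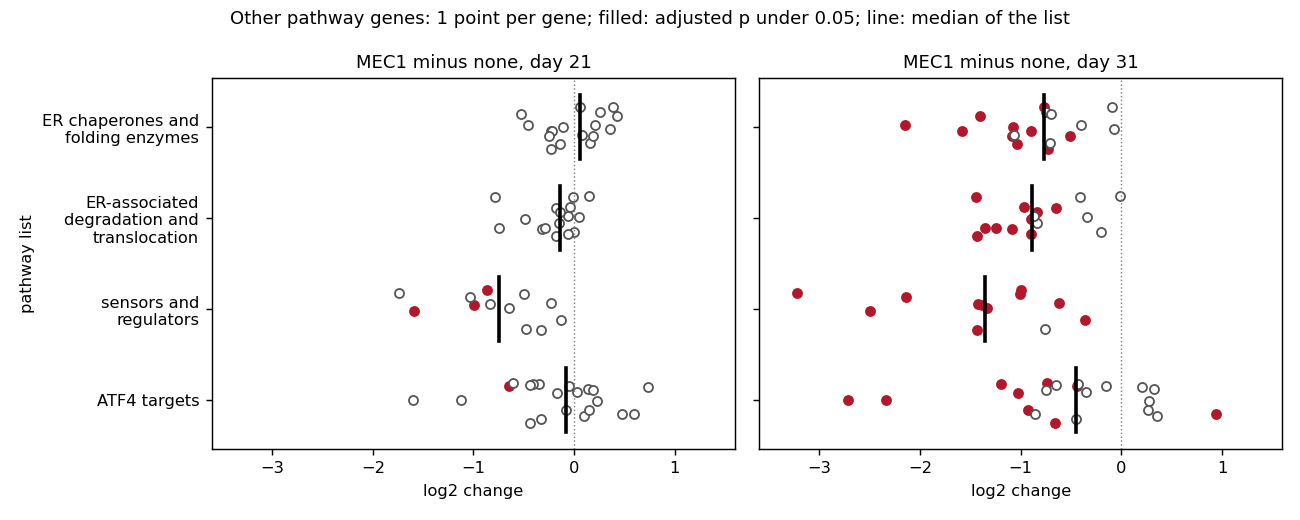
Change with MEC1 on the log2 scale (horizontal axis) for the other tested pathway genes by list, 1 point per gene, filled where the adjusted p was under 0.05, with a line at each list's median. At 31 d the medians are -0.77 for chaperones, -0.89 for degradation and translocation, -1.36 for sensors and regulators and -0.45 for ATF4 targets, and at 21 d the sensors and regulators have the lowest median (-0.74).

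The genes whose pattern over the 12 arrays was most like that of Hspa5 were sought among 13538 tested clusters with 1 symbol, predicted genes (Gm and Rik names) left out. The measure was the mean absolute difference of the deviations from each gene's own mean. The most alike were Ect2 (0.106), Ltn1 (0.126), Nucks1 (0.128), the BiP co-chaperone gene Dnajc3 (0.131) and Hdlbp (0.135), with changes of -1.34, -1.58, -1.42, -1.58 and -1.30 at 31 d. For Atf4 they were Fbxw2 (0.080), Lasp1 (0.082), Guca1a (0.089), Prdm9 (0.093) and Fam217b (0.094), all with changes from -0.06 to 0.04 at 31 d.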

How the data were processed

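The deposited table holds log2 intensities per transcript cluster, which the authors made with Affymetrix Expression Console and RMA, per the submitters' processing notes (versions not stated). The array's genome build is not given in the sources used here. Of 72688 features, 6732 controls were left out. The platform's gene annotation gave 1 symbol to 30604 clusters, several to 2146 and none to 33206, and 827 symbols were updated.

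Clusters above the median of the array in 3 or more arrays were tested. A linear model with 4 group means over all 12 arrays was fitted with limma 3.58.1 (R 4.3.3) with empirical Bayes moderation. The tests were two-sided, Benjamini-Hochberg adjustment ran over the 37240 clusters, the threshold was 0.05, and the procedure was tested on simulated data. The labels number the mice as separate animals. The members and lists were chosen with earlier results of these data known.

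The genes named were the members, up to 4 of each pathway list with the largest change among those that passed at 31 d, and the 5 most like Hspa5 and Atf4. Exceptions are stated where they occur. Promoters came from RefSeq (GRCm38.p6).

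Alternatives were the filter (none, 70th percentile), quantile normalization with and without MEC1 31 d replicate 3, centring, the hybridisation controls as a covariate, the variance model, the 6 arrays of a day, the mean of a symbol's clusters, a replicate block and each array left out. List counts under these settings and centring on the median over all clusters were chosen after seeing the data.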

Additional observations from a re-analysis of the deposited data

How the results depend on the processing

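With MEC1 31 d replicate 3 left out, 4 members were called at 31 d, 3 lower and Chac1 higher. In that fit 14.4% of all clusters fell and 14.7% rose. The count of members, Chac1 included, ranged from 4 to 8 over the arrays left out in turn, beside 10647 to 16847 of all clusters. At 21 d it ranged from 0 to 1, and it was 0 with no filter, with centring on the tested clusters, with the covariate, with trend and robust moderation, with no moderation, with the 6 arrays of the day and with the replicate block. At 31 d it was 3 with quantile normalization without MEC1 31 d replicate 3, 2 lower and 1 higher. The member called higher there was Atf4 and not Chac1, and 8.71% of all clusters fell and 10.4% rose. The count of members was 0 with the covariate. With 3 mice per group it cannot be told whether the replicate numbers pair the mice. Same-numbered deviations correlated at 0.363, -0.169 and 0.415 at 21 d and at -0.011, 0.16 and 0.018 at 31 d. Differently numbered ones ranged from -0.49 to 0.328 at 21 d and from -0.153 to 0.107 at 31 d. With the replicate block 6 members were called at 31 d, Ddit3 had an adjusted p of 0.0522 at 21 d, and 831 and 14484 clusters were called at 21 d and 31 d, against 1615 and 16297.

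Quantile normalization turned Herpud1 (0.014), Xbp1 (0.14) and Atf4 (0.12) at 21 d, Atf4 at 31 d (0.71) and the difference of days for Ddit3 (0.35). Without MEC1 31 d replicate 3 as well, these were 0.011, 0.14, 0.12, 0.57 and 0.37, and Xbp1 was 0.062 at 31 d. Centring on the median over all clusters turned Hspa5 (-0.17) and Calr (-0.03) at 21 d. Leaving out 1 array gave -0.083 to 0.22 for Hspa5 and -0.47 to 0.058 for Herpud1 at 21 d, -0.07 to 0.05 for Atf4 at 31 d, -0.45 to 0.24 for the difference of days of Ddit3 and -0.043 to 0.11 for Chac1 between the controls.

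Group differences made up 92.1% of the variance of the hybridisation controls. With these as a covariate, Herpud1 was 0.99 and Xbp1 1.33 at 21 d. At 31 d Hspa5 was 0.96, Hsp90b1 2.19, Calr 1.86, Pdia4 1.67, Pdia6 2.31, Herpud1 1.04, Xbp1 1.78, Atf4 0.25 and Chac1 -0.04. None passed, and Ddit3 was -0.09 (adjusted p = 0.987). The differences of days were 0.14 for Pdia6, 0.049 for Herpud1, 0.45 for Xbp1, 0.57 for Ddit3 and -0.064 for Chac1, and the changes between controls -0.13 for Hsp90b1, -0.11 for Pdia6 and -0.084 for Xbp1. The chaperones minus ATF4 targets gave 2.41 at 21 d and 1.87 at 31 d (main -0.94), and 0.17 at 21 d with the pathway lists in place of the members. The cause of these changes was not tested.

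Over all clusters 1615 were called at 21 d, but 676 with no moderation, 454 with the 6 arrays of the day and 4 with the covariate, and 330 to 2883 with 1 array left out. At 31 d 8430 rose and 7867 fell. Centring on the median over all clusters gave 2785 and 13739, the 70th percentile filter 3046 and 7437, no filter 21744 and 8321, quantile normalization 5252 and 5282, and the covariate 7 and 0. Signals near the array median, as for Chac1, limit what a change there can show.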

Other observations

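Over the genome, 37 genes had ERSE in a promoter window, and 17 of them were tested. At 31 d 7 of the 17 fell and 3 rose, with a median change of -0.70. Without the members, 13 were tested, 4 fell, 3 rose, and the median was -0.20. Those that fell were the chaperone gene Canx (-1.08, adjusted p = 0.00674), Creld2 (-2.15), Dnajc3 (-1.58) and Pan2 (-1.49, adjusted p = 0.00204). Those that rose were Adcy3 (0.87, adjusted p = 0.00115), Acnat2 (0.73, adjusted p = 0.022) and Spats2l (0.68, adjusted p = 0.00166).

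Of 193 genes with UPRE, 95 were tested, of which 43 fell and 8 rose at 31 d, with a median change of -0.52. Of 1219 genes with CARE, 370 were tested, 114 fell and 83 rose, with a median of -0.09. Of all tested clusters, 21.1% fell and 22.6% rose at 31 d, and 30.5% to 53% fell in the bands of level from 8 to under 16. The motif counts were not set against genes of like level, so nothing about the motifs is read from them.

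In the pathway lists, ERSE was found for Canx, Dnajc3, Creld2 and Ero1b among 15 chaperone and folding genes with a promoter window, and for Syvn1 (-0.20, adjusted p = 0.241) and Derl3, which was not tested, in the degradation list. ERSE-II was found for Dnajb11 (-0.75, adjusted p = 0.067), UPRE and CARE for Txndc5, and CARE for 8 of 19 ATF4 targets, including Asns, Atf3 and Slc7a11. Of these, Asns and Atf3 fell, and Slc7a11, at low signal, rose. None of the 12 sensors and regulators with a window had any of the 4 elements.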
